A study of Mus musculus with 9 samples.

Results

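The genes described here amplify centrioles in cells that form multiple cilia. They were chosen by symbol, as every probe set annotated with Deup1, Plk4, Stil, Cdc20b, Ccno, Sass6, Cep152, Cep63, Cenpj or Ccdc78. The rule uses no measured value, but the list was drawn up with earlier results of these data known. All 10 genes were found, in 11 of the 28214 probe sets of the array, because Cep63 had 2 probe sets and the others had 1 each. The series as a whole measured 19937 genes through probe sets with a single symbol. RNA came from whole oviduct, the tube between ovary and uterus, of CD1 female mice that had received no hormonal stimulation. There were 3 groups of 3 arrays: sexually immature females at day 21, sexually mature females in estrus, and sexually mature females in diestrus. The labels used here do not state the ages of the mature females, so age and cycle stage differ together between the immature and mature groups. The groups are separate sets of pools, so an order among them is not a course over time. Each array carried tissue pooled from 5 animals, so the spread between arrays is a spread between pools and does not show how single animals varied. Values are deposited log2 intensities after robust multi-array averaging (RMA), and a gene was called where its p, adjusted by the Benjamini-Hochberg method across every probe set, was under 0.05.

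A motile cilium grows from a basal body, which is a modified centriole. A dividing cell copies its centrioles once per cycle, whereas a multiciliated cell makes a large set of them without dividing, partly on the walls of its old centrioles and mostly on deuterosomes, ring-shaped bodies found only in such cells. Deup1 builds the deuterosome. Cep152 recruits the kinase Plk4, Stil and Sass6 then lay down the cartwheel of the new centriole, and Cenpj lengthens its wall. In the oviduct, multiciliated epithelial cells help move the egg and embryo towards the uterus.

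In short, 6 of the 10 genes had their highest values in immature oviduct, lower ones in estrus and the lowest in diestrus, with no overlap between any of the 3 groups. These were Deup1, Plk4, Stil, Sass6, Ccno and Cdc20b. Over all probe sets 0.535% showed that stepwise order and 0.117% the opposite one. Among probe sets above the median mean 0.957% stepped down. All 6 fell in diestrus relative to immature oviduct, to between 44.8% (Stil) and 69.6% (Sass6) of the immature intensity. These 6 calls became 3 without diestrus 2. In estrus minus immature only Stil was called, and in diestrus minus estrus none was, so the middle place of estrus mostly rests on uncalled differences. The other 4 genes, Ccdc78, Cep63, Cep152 and Cenpj, passed the test in no comparison. RNA of a whole tissue cannot tell fewer cells of a type from less RNA per cell, and this holds for every difference given here.

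The sequences at the starts of 4 of these genes are shown because 3 of them (Deup1, Ccno and Stil) shared the stepwise fall while Ccdc78 did not. They are RefSeq windows of build GRCm38.p6, from 250 bases before to 50 after the annotated start, 5′ to 3′ on the gene's strand. Capitals mark the word GTTGCC or its complement GGCAAC, an arm of the X-box that RFX factors of ciliated cells bind. The windows lie at chr9:15627797-15628096 (minus strand) for Deup1, at chr13:112987552-112987851 (plus) for Ccno, at chr4:114999868-115000167 (plus) for Stil and at chr17:25786330-25786629 (plus) for Ccdc78. Deup1 had 2 annotated windows, and the one with the word is printed.
Deup1: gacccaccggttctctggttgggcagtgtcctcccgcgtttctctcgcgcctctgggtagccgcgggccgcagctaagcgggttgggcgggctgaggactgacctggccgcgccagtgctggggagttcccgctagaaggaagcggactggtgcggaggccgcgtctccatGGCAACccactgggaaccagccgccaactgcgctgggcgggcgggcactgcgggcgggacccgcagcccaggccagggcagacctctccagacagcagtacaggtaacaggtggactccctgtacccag
Ccno: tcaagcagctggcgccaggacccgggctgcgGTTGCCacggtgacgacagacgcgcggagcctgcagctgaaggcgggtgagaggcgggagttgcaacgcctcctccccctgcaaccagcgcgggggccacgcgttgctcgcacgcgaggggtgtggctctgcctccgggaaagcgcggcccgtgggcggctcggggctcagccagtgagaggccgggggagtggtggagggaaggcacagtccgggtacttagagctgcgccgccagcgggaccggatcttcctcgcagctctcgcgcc
Stil: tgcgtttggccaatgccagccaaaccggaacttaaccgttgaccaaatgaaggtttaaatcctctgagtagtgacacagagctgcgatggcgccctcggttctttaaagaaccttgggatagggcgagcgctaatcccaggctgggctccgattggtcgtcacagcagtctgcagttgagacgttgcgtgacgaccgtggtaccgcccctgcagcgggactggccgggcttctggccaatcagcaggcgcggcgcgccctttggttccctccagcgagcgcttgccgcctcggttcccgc
Ccdc78: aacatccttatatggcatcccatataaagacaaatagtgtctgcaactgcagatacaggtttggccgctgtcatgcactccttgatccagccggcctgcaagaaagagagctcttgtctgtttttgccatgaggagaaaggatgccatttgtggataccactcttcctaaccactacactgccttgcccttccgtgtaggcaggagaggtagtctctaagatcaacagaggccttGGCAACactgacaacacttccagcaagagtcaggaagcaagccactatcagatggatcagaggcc
On either strand the word lay in windows of 3 of the 10 genes, Deup1, Ccno and Ccdc78, and in 12.5% of all 32851 windows. Its first base lay 79 bases before the start in Deup1, 219 in Ccno and 15 in Ccdc78. Of its holders Deup1 and Ccno fell and Ccdc78 passed no test, and the window of Stil, with the largest fall, lacked these letters. The E2F words TTTCCCGC, TTTCGCGC, TTTGCCGC and TTTGGCGC were found in 1 of the 10 genes, Cep63, and in 2.26% of all windows. CCAAT was found in 3 genes (Cep152, Stil and, in its other window, Deup1) and in 37.4% of windows, and the cell cycle word TTTGAA in Sass6 and in 17.9% of windows. A match describes the letters of this window and shows no binding.

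Genes typical of oviduct epithelium were well represented on all 9 arrays. Pax8 of secretory cells had group means of 12.02 to 12.18 and Foxj1 of ciliated cells 11.26 to 11.49, above each array's median. Ovgp1, the oviduct glycoprotein gene, had no probe set with a single symbol and was not analysed here. Arrays of 1 group differed in genes of neighbouring tissue: the summed linear intensity of 12 ovarian genes spanned 5340 to 14206 on the immature arrays (highest on immature 2), 5986 to 6925 in estrus and 5871 to 12778 in diestrus (highest on diestrus 2). For 8 oocyte genes the ranges were 2116 to 3555, 2048 to 2369 and 2264 to 2525, with immature 2 again highest, and 7 of the 8 had lower means in diestrus than in immature oviduct. For 10 smooth muscle genes the sum reached 52082 on diestrus 3, against at most 39357 elsewhere. Inha, the inhibin subunit gene of the ovary, stood at 12.42 on immature 2, and Myh11, the smooth muscle myosin gene, at 12.33 on diestrus 3. In diestrus 6 of the 12 ovarian means were higher than in immature oviduct and 6 lower. Star alone was called, higher by 0.74 ± 0.14 (SE; limma adjusted p = 0.0463). It read 8.72, 9.21 and 9.12 in diestrus against 8.12, 8.43 and 8.29, and lay below the median on 7 arrays. Of 5 fat genes all means were lower in estrus and in diestrus than in immature oviduct (medians -0.47 and -0.50, none called by limma, 3 at an unadjusted p under 0.05 in each), and their sum spanned 1744 to 3280, 1599 to 1757 and 1452 to 1827, highest on immature 1. Of 7 blood genes all means were higher in diestrus (median 0.28, none called, 4 at an unadjusted p under 0.05), with sums of 3841 to 4680, 3795 to 4291 and 4680 to 6146. The sum of 8 stroma genes spanned 34152 to 37587, 31819 to 35025 and 30482 to 43017, and was highest on diestrus 3. Of the fat and of the blood genes 1 each lay below the lower quartile on every array. None of the genes of the ovarian, oocyte and muscle lists lay below the lower quartile on every array, while 3 ovarian and 4 oocyte genes lay below the median on every array. The part of these tissues in the differences below was not tested, and the calls without the arrays concerned are given with the counts.

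Deup1, the scaffold protein of the deuterosome, stood at log2 values of 10.64, 10.55 and 10.85 on the 3 immature arrays. It stood at 10.47, 10.22 and 9.90 in estrus and at 9.65, 9.57 and 9.60 in diestrus. The lowest immature array lay just above the highest estrus array, and the diestrus arrays lay together below all others. Deup1 fell by 1.07 ± 0.13 (SE) from immature to diestrus, to 47.7% of the immature intensity (limma adjusted p = 0.0103). The estrus mean of 10.20 ± 0.29 (SD, n = 3) differed from the immature mean of 10.68 ± 0.15 by -0.48, with a 95% confidence interval from -0.77 to -0.19 and an adjusted p of 0.382 in limma. The diestrus mean of 9.61 ± 0.04 differed from that of estrus by -0.59 (limma adjusted p = 0.137). The diestrus call ended without diestrus 2 (adjusted p = 0.0518), at a difference of -1.05.

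Ccdc78, another protein placed at deuterosomes, showed no step between the groups. Its values were 10.19, 10.32 and 10.78 on the immature arrays, 10.29, 10.32 and 10.21 in estrus and 10.31, 10.52 and 10.22 in diestrus. The 3 groups overlapped, and both the lowest and the highest of the 9 values were immature. The diestrus minus immature difference was -0.08 with a 95% interval from -0.39 to 0.23 (limma adjusted p = 0.857), so a fall as deep as that of Deup1 lay outside the interval. This direction rested on immature 3, without which the difference was 0.09.

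Cep63 and Cep152 form the cradle on the old centriole from which Plk4 works, and Cep63 is the paralog of Deup1 used there. The main probe set of Cep63 read 9.12, 9.23 and 9.41 on the immature arrays, 9.21, 9.34 and 9.04 in estrus and 9.11, 9.29 and 9.15 in diestrus. Its groups overlapped throughout, with a diestrus minus immature difference of -0.07 (95% interval from -0.29 to 0.15, limma adjusted p = 0.824). The second Cep63 probe set differed by 0.07 in the same comparison, the opposite sign, and lay between 8.03 and 8.26 on all arrays. Cep152 read 8.26, 8.35 and 8.26 in immature oviduct, 8.41, 8.14 and 8.30 in estrus and 8.15, 8.17 and 8.20 in diestrus. The diestrus arrays of Cep152 lay below the immature arrays, but the difference was small, -0.12 with an interval from -0.28 to 0.04 (limma adjusted p = 0.513). Between 33.0% and 37.9% of an array's probe sets lay below Cep152, so its values were below the median, where no detection call tells signal from background.

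Plk4, the kinase that starts every new centriole, read 9.98, 10.05 and 9.92 on the immature arrays. In estrus it read 9.64, 9.48 and 9.31, and in diestrus 8.84, 8.79 and 9.21. Its values on diestrus 1 and diestrus 2 lay just below the array median, where no detection call tells signal from background. The groups did not overlap, although diestrus 3 stood apart from the other diestrus arrays and close to the lowest estrus array. On diestrus 3 the division marker Mki67 also stood at 9.63, against 8.69 and 8.89 on the other diestrus arrays. Plk4 fell by 1.04 ± 0.12 (SE) from immature to diestrus, to 48.8% of the immature intensity (limma adjusted p = 0.00657), and its call held whichever single array was left out. Estrus lay between, -0.51 from immature and with diestrus a further -0.53 below it (limma adjusted p = 0.243 and 0.133).

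Stil, which binds Plk4 and brings Sass6 to the new centriole, showed the largest fall of the 10. Its values were 9.22, 9.13 and 9.49 on the immature arrays, 8.62, 8.56 and 8.39 in estrus and 8.06, 8.10 and 8.21 in diestrus. The groups did not overlap, and the estrus and diestrus arrays lay closer together than the immature and estrus arrays. Stil fell by 1.16 ± 0.10 (SE) from immature to diestrus, a 2.23-fold lower intensity (limma adjusted p = 0.00246), and only 4 of the 28214 probe sets had a lower difference. It was also the single member called in estrus, where it fell by 0.75 ± 0.10, to 59.3% (limma adjusted p = 0.0369). The estrus call was retained in 1 of 9 fits that left out an array, the one without diestrus 3. It also ended with the replicate number as a block (adjusted p = 0.104), with cyclic loess (0.0559) and with only the immature and estrus arrays in the fit (0.0622). On the estrus arrays 38.4% to 43.7% and on the diestrus arrays 31.3% to 34.4% of probe sets lay below Stil, so both calls rest on values under the array median, where no detection call was made.

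Sass6, the protein of the cartwheel hub, moved in the same order by a smaller amount. It read 10.28, 10.41 and 10.39 on the immature arrays, 10.09, 10.26 and 9.92 in estrus and 9.82, 9.85 and 9.82 in diestrus. Estrus 2 nearly reached the lowest immature array, while diestrus was tight. Sass6 fell by 0.52 ± 0.08 (SE) in diestrus, to 69.6% of the immature intensity (limma adjusted p = 0.0264). That call ended in 5 of 9 fits without a single array: without any of the 3 immature arrays and without diestrus 1 or diestrus 2, with adjusted p of 0.0925 without the last. Cenpj, which adds tubulin to the growing wall, read 8.06, 8.11 and 8.05, then 8.01, 8.03 and 8.03, then 8.03, 8.03 and 7.97 in immature, estrus and diestrus oviduct. All estrus and diestrus arrays of Cenpj lay below its immature arrays, but by little. The diestrus minus immature difference of Cenpj was -0.07 (95% interval from -0.17 to 0.04, limma adjusted p = 0.611). Between 29.4% and 32.7% of an array's probe sets lay below Cenpj, so it too lay in the range without a detection call.

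Ccno, a cyclin needed for deuterosomes and for the formation of many centrioles, read 9.90, 9.67 and 9.89 on the immature arrays. It read 9.56, 9.40 and 9.27 in estrus and 9.01, 9.04 and 8.90 in diestrus. All estrus arrays lay between the other groups. Ccno fell by 0.84 ± 0.09 (SE) in diestrus, to 56.0% of the immature intensity (limma adjusted p = 0.00604). The call, though not these values, was retained in each of the 9 fits that left out an array. In estrus it stood at -0.41 from immature (95% interval from -0.61 to -0.21, limma adjusted p = 0.211).

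Cdc20b, a relative of the mitotic activator Cdc20 with a part in freeing new centrioles from deuterosomes, read 9.76, 9.81 and 10.30 on the immature arrays. It read 9.46, 9.28 and 9.24 in estrus and 8.94, 8.95 and 8.94 in diestrus. Immature 3 stood well above the other 2 immature arrays, and the diestrus arrays agreed to within 0.01 (SD). Cdc20b fell by 1.01 ± 0.13 (SE) in diestrus, to 49.5% (limma adjusted p = 0.0127), a call that ended without diestrus 2 (adjusted p = 0.0526) at a difference of -1.02, and with only the immature and diestrus arrays in the fit (0.0588). Mitotic Cdc20 itself, singled out after its values were seen, differed by -0.37 in estrus and by -0.37 in diestrus, and passed the test in neither (limma adjusted p = 0.175 and 0.0604).

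**Figure D1:**
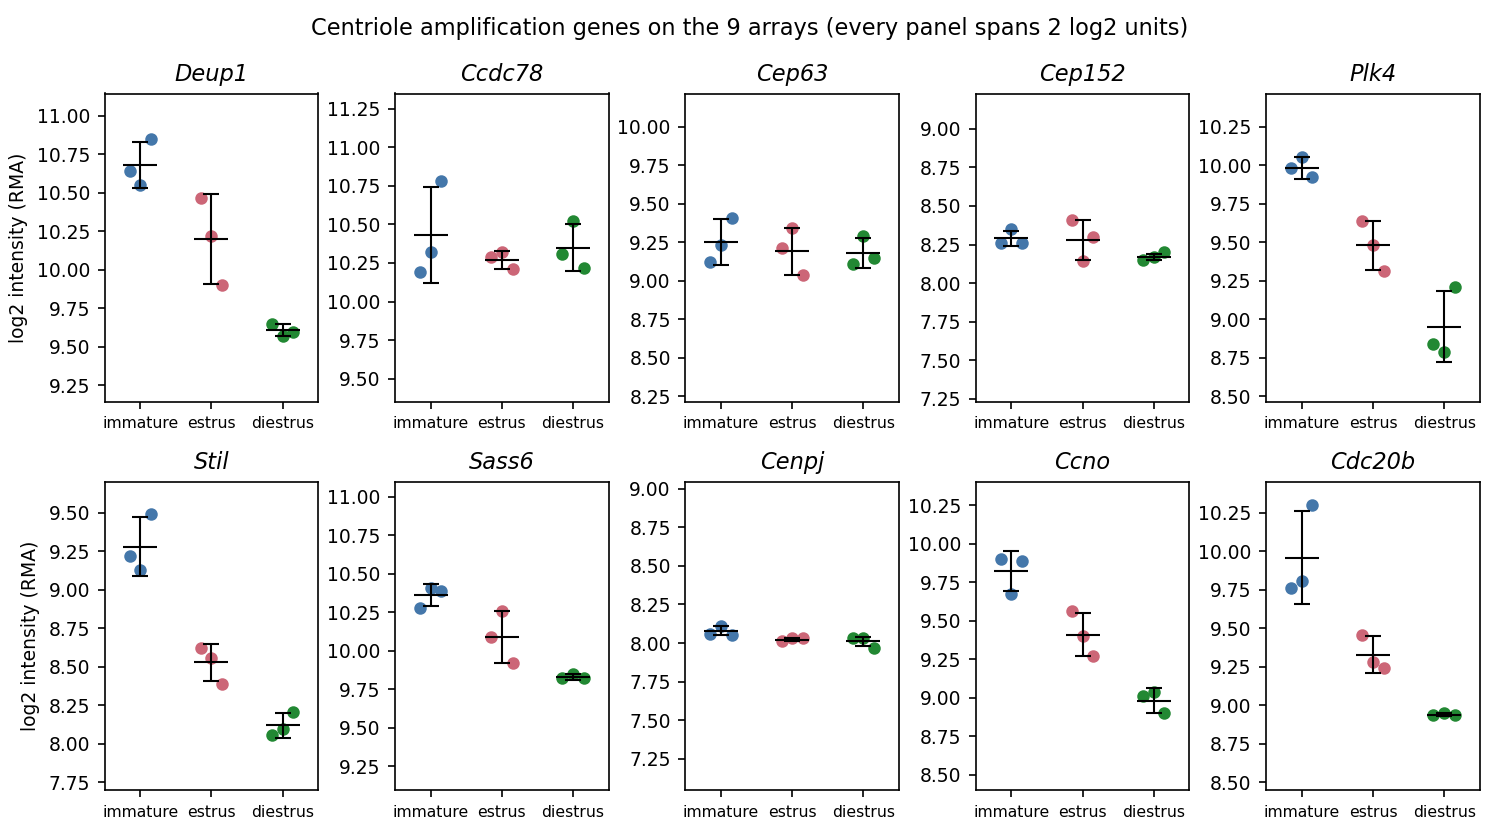
Log2 intensity of the 10 genes on the 9 arrays. Points are arrays, the horizontal bar is the group mean and the error bar the SD (n = 3), and every panel spans 2 log2 units. Deup1, Plk4, Stil, Sass6, Ccno and Cdc20b are highest in immature, lower in estrus and lowest in diestrus, without overlap. Ccdc78 and Cep63 stay level, Cep152 is slightly lower in diestrus and Cenpj slightly lower in estrus and diestrus.

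Counted together, the comparison of diestrus with immature oviduct called 6 of the 10 genes lower and none higher. Over all probe sets 1.00% were called, 0.705% lower and 0.294% higher. The members' median difference was -0.68, against 0.01 over all probe sets, and 8 of 10 had diestrus arrays entirely below the immature ones (10.9% of all probe sets). All 10 means were lower, as were 46.3% of all means. Without diestrus 2, 3 genes were called (Ccno, Plk4 and Stil). With the arrays of high ovarian or muscle signal (immature 2, diestrus 2 and diestrus 3) left out together, 1 diestrus array remained, and it was assumed to vary like the other groups. None was then called by limma, with adjusted p from 0.147 to 0.453 for the 6 genes, whose differences lay between -0.51 and -1.29. Over all 28214 probe sets that fit called 2 lower and 1 higher, in place of 199 and 83.

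For estrus against immature oviduct, 1 of the 10 was called lower, Stil, and none higher. Over all probe sets 0.0851% were called, 0.0532% lower and 0.0319% higher. All 10 means were lower (45.1% of all probe sets), with a median of -0.34 against 0.01. In 7 genes the estrus arrays lay entirely below the immature ones, as in 6.62% of probe sets, and 6 genes had an unadjusted p under 0.05. With array weights 6 members were called, but that setting also called far more of all 28214 probe sets, 699 lower and 324 higher, in place of 15 and 9.

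Within the cycle, limma called none of the 10 between diestrus and estrus, with 6 at an unadjusted p under 0.05. Over all probe sets 0.159% were called, 0.0922% lower and 0.0673% higher. With array weights 5 members were called, beside 1742 probe sets lower and 1589 higher of 28214. In 9 of 10 the diestrus mean was lower (53.1% of all probe sets), with a median of -0.32 against -0.01, and in 6 the groups did not overlap (6.85% of probe sets). These were the 6 genes of the stepwise order, with differences between -0.26 (Sass6) and -0.59 (Deup1). The comparison with estrus shares its estrus arrays with the one before, so both steps rest in part on the same measurements.

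With both mature groups averaged, 5 of the 10 were called lower than in immature oviduct and none higher. Over all probe sets 0.432% were called, 0.312% lower and 0.121% higher. All 10 means were lower (45.7% of probe sets), and in 7 genes the mature arrays lay entirely below the immature ones (3.18%). Stil fell by 0.96, Cdc20b by 0.82, Plk4 and Deup1 by 0.77 and Ccno by 0.62, with limma adjusted p between 0.0031 and 0.0247, and Sass6 differed by -0.39 (adjusted p = 0.0584). With the replicate number as a block 2 were called, Ccno and Stil. The count was 2 without immature 1, 2 or 3, 3 without estrus 2 and 3 without diestrus 1.

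**Figure D2:**
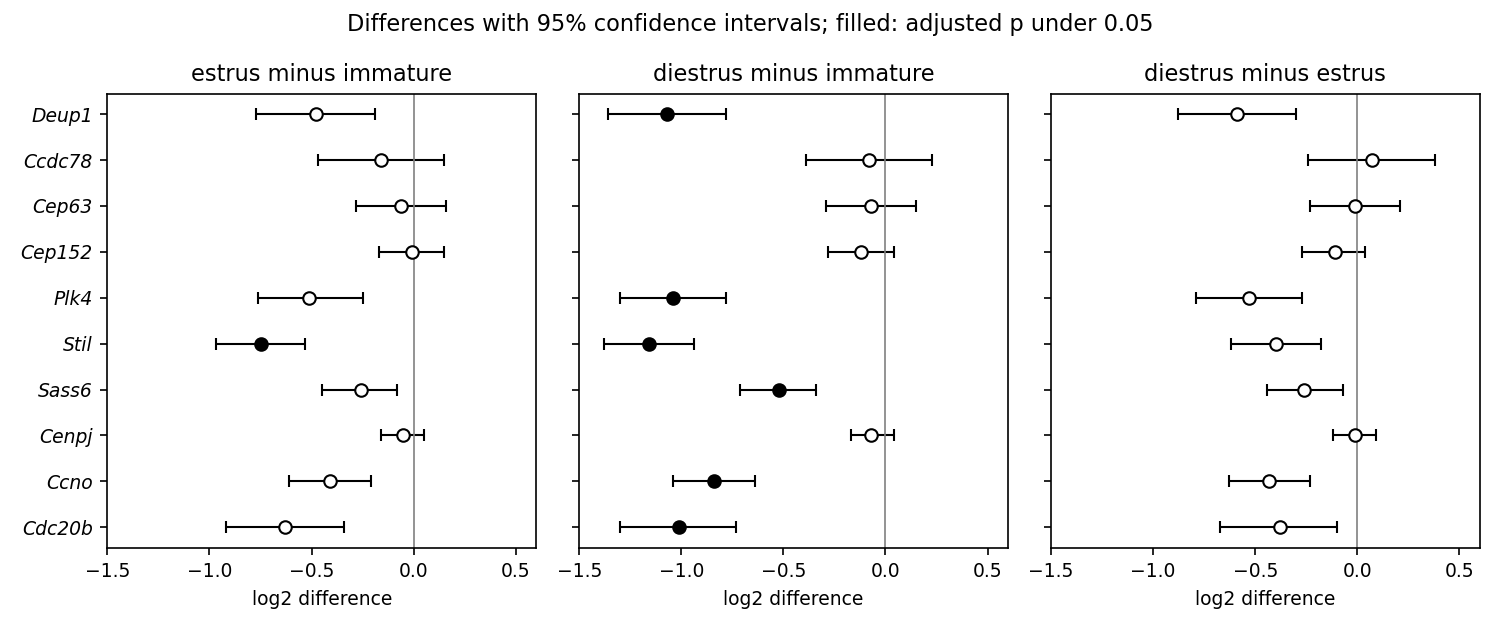
Log2 difference of each gene in the 3 pairwise comparisons, with 95% confidence intervals from limma. Filled circles passed an adjusted p under 0.05. The 6 stepwise genes lie left of 0 in all 3 panels with intervals that exclude 0, but after adjustment over all probe sets calls remain for 6 genes in diestrus minus immature and for Stil in estrus minus immature.

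Within groups the arrays were not interchangeable. Of the 3 estrus arrays, estrus 3 held the lowest value of 8 of the 10 genes and estrus 1 the highest of 6. Of the immature arrays, immature 3 held the highest value of 5 genes and immature 1 the lowest of 5. The summed intensity of the 32 structural genes of motile cilia was also highest on immature 3 and lowest on estrus 3 of all 9 arrays.

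Ccno and Cdc20b are near neighbours on chromosome 13, with only Mcidas between them in the RefSeq gene order. Mcidas encodes multicilin, which together with E2f4 or E2f5 switches on the centriole genes. It read 10.31, 10.25 and 10.27 on the immature arrays, 10.15, 9.94 and 9.97 in estrus and 9.75, 9.80 and 9.58 in diestrus, the same stepwise order without overlap. Mcidas fell by 0.56 ± 0.08 (SE) in diestrus (limma adjusted p = 0.0149). The genes on either side were not called and did not show that order without overlap. Dhx29 before Ccno differed by -0.15 in diestrus and Gpx8, inside the span of Cdc20b, by -0.29 (limma adjusted p = 0.388 and 0.157). The means of Gpx8 did step down, from 12.02 to 11.80 and 11.73, but its estrus and diestrus arrays overlapped. Of the 8 genes measured among 10 in this stretch, the 3 named first were called lower.

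The span of Cdc20b also holds the hairpins of the miR-449 family, which in ciliated cells represses cell cycle and Notch genes. The mature sequences are shown because their shared seed, bases 2 to 8 in capitals, is what makes them one family. They are from RefSeq, build GRCm38.p6, at chr13:113037549-113037570 and chr13:113036008-113036028, plus strand.
mmu-miR-449a-5p: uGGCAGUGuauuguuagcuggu
mmu-miR-449c-5p: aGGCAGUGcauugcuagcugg
The probe set of Mir449a had group means of 8.41 ± 0.11, 8.47 ± 0.12 and 8.44 ± 0.08 (SD, n = 3) in immature, estrus and diestrus oviduct, and that of Mir449c 8.44 ± 0.10, 8.30 ± 0.04 and 8.28 ± 0.05. Neither was called: the diestrus differences were 0.03 and -0.15 (limma adjusted p = 0.917 and 0.34). Both probe sets lay below the median of every array, and these values do not measure the mature miRNAs.

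**Figure D3:**
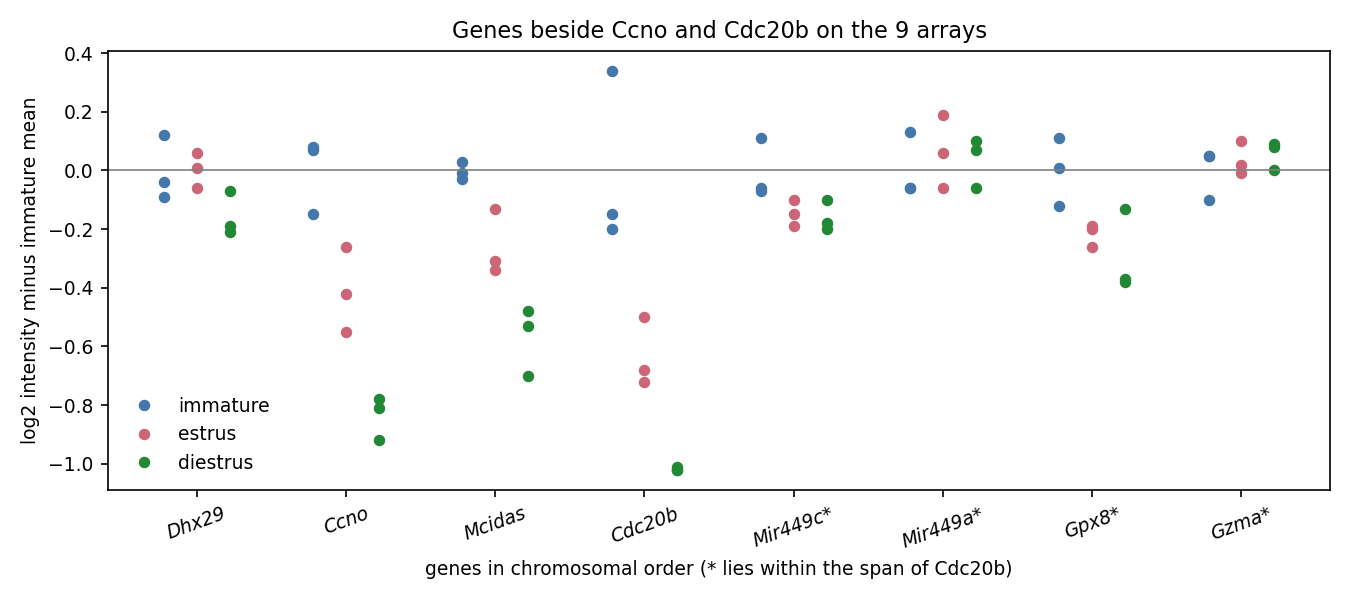
Log2 intensity minus the immature mean for 8 genes in their order on the chromosome, on the 3 arrays of each group (points). Ccno, Mcidas and Cdc20b are highest in immature, lower in estrus and lowest in diestrus, whereas Dhx29, Mir449c, Mir449a, Gpx8 and Gzma stay within 0.4 of the immature mean.

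Of 11 measured regulators that start or direct the multiciliated program, Mcidas alone was called in diestrus, all 11 means were lower and the median difference was -0.23. Gmnc, the geminin relative at the top of the program, was singled out after its values were seen. It read 10.07, 10.24 and 10.42 on the immature arrays, 10.15, 10.21 and 10.20 in estrus and 9.77, 9.82 and 9.15 in diestrus. Its estrus values lay within the immature range and its diestrus values below it, and the diestrus difference of -0.66 ± 0.16 (SE) did not pass the test (limma adjusted p = 0.0996). Foxj1, which drives the motile cilium genes, differed by -0.23 and Myb, needed early in the program, by -0.16 (limma adjusted p = 0.49 and 0.483). Rfx2, whose product binds the X-box, differed by -0.19 (limma adjusted p = 0.306).

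Among 32 other genes that build or lengthen centrioles, 3 fell in diestrus, none rose, and all 32 means were lower with a median of -0.18. Hyls1, a centriole protein needed to form cilia, fell by 0.68 ± 0.06 (SE; limma adjusted p = 0.00301) and showed the stepwise order: 9.13, 9.05 and 9.05 on immature arrays, 8.75, 8.76 and 8.60 in estrus and 8.47, 8.35 and 8.38 in diestrus. Tubg1, the gamma-tubulin that nucleates microtubules, fell by 0.41 ± 0.07, also without overlap between the 3 groups, and Ppp1r35, which promotes conversion of centrioles to centrosomes, by 0.35 ± 0.07 (limma adjusted p = 0.0362 and 0.0463). The calls of Tubg1 and Ppp1r35 ended with cyclic loess normalization, and that of Hyls1 did not. The estrus and diestrus values of Hyls1 lay below the array median, where no detection call was made. Of those not called, Cep350 differed by -0.09 and C2cd3, a protein of the growing distal end, by -0.04 (limma adjusted p = 0.623 and 0.824). The 15 genes of basal body appendages and satellites had a median of -0.16 with none called by limma and 3 at an unadjusted p under 0.05, Pcm1 of the satellites differing by -0.25 (adjusted p = 0.185).

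Of 18 genes of the cell cycle engine, which multiciliated cells borrow for centriole amplification, 3 were called lower in diestrus: Ccna1, Ccna2 and Ccnb2. Cyclin A2 (Ccna2) fell by 1.04 ± 0.17 and cyclin B2 (Ccnb2) by 0.88 ± 0.17 (SE; limma adjusted p = 0.0318 and 0.0496). Cdk1, the mitotic kinase, differed by -0.88 without passing the test (limma adjusted p = 0.0971). Ccna1 (cyclin A1) had group means of 10.20 ± 0.15, 9.16 ± 0.07 and 9.11 ± 0.07 (SD, n = 3) in immature, estrus and diestrus oviduct. Both mature groups thus stood at nearly the same level, and diestrus differed from estrus by -0.05 (limma adjusted p = 0.964). In the list as a whole 18 of 18 means were lower in estrus than in immature oviduct (median -0.40). In diestrus 17 of 18 were lower than in immature oviduct (median -0.36), and 12 of 18 were higher than in estrus (median 0.05). Between diestrus and estrus none of the 18 was called by limma, with 1 at an unadjusted p under 0.05. With cyclic loess the call of Ccnb2 in diestrus ended, and 4 genes of the wider lists were called there (Ccna1, Ccna2, Hyls1 and Mcidas) in place of 8.

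Markers of dividing cells were lower in both mature groups than in immature oviduct. All 25 had lower means in estrus (median -0.48, none called by limma, 22 at an unadjusted p under 0.05). All 25 were also lower in diestrus than in immature oviduct (median -0.45, none called by limma, 21 at an unadjusted p under 0.05). With both mature groups averaged 1 of the 25 was called lower, Kif11 (-0.69, limma adjusted p = 0.0272). Between the mature groups, 21 of 25 had higher means in diestrus than in estrus (median 0.07), beside 53.1% of all probe sets with lower means. None of the 25 was called by limma there, and 0 had an unadjusted p under 0.05. Their summed intensity spanned 14798 to 16123 on the immature arrays, 10178 to 12029 in estrus and 9482 to 14004 in diestrus, and 4 of the 25 lay below the lower quartile of every array. The highest diestrus sum belonged to diestrus 3. Mki67 differed by -0.88 in diestrus and Top2a, the topoisomerase of dividing cells, by -0.89, with limma adjusted p of 0.143 and 0.176, and Top2a stood at 9.62 on diestrus 3 against 8.54 and 8.56 on the other diestrus arrays. After each array's mean of these 25 genes was subtracted from its log2 values, Stil, Deup1, Plk4 and Cdc20b were still lower on every diestrus array than on any immature array, by 0.54 (Cdc20b) to 0.68 (Stil), and Ccno and Sass6 overlapped. The differences of group means for those genes were -0.36 and -0.05. None of the 10 kept the stepwise order without overlap after this subtraction. It was made for the members only, so no share over all probe sets stands beside these counts. Stil, Deup1, Plk4, Cdc20b, Ccno and Sass6 had been grouped for their lack of overlap in these same values. The part of dividing cells in the members' differences was not tested.

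Structural genes of motile cilia mark ciliated cells already formed. Tppp3, an abundant tubulin-binding gene among them, differed by -0.23 in diestrus (limma adjusted p = 0.272). Of 32 measured, 31 had lower means in estrus and 29 in diestrus than in immature oviduct, the direction of the members, beside 45.1% and 46.3% of all probe sets. None was called by limma in any of the comparisons, and their median was -0.13 in estrus and -0.12 in diestrus against immature oviduct, with 4 at an unadjusted p under 0.05 in each, and 0.00 between diestrus and estrus, where 0 had an unadjusted p under 0.05. Their summed intensity spanned 70728 to 89756 on the immature arrays, 68050 to 77889 in estrus and 69430 to 79671 in diestrus, ranges that overlapped, and none of the 32 lay below the lower quartile of every array. Relative to each array's mean of these 32 genes, the 6 stepwise genes were lower on every diestrus array than on any immature array. Stil then differed by -1.02, Deup1 by -0.93, Plk4 by -0.90, Cdc20b by -0.88, Ccno by -0.70 and Sass6 by -0.39. In Ccno, Cdc20b and Stil the stepwise order without overlap was retained, while in Deup1, Plk4 and Sass6 estrus then overlapped immature oviduct. This subtraction too was made for the members only, without a share over all probe sets. The 6 genes had been grouped for their lack of overlap in these same values. The mean of the 32 genes differed by -0.13 in diestrus, so the subtraction moved each diestrus minus immature difference by about that amount. On single arrays that mean spanned 10.75 to 11.11 in immature, 10.68 to 10.87 in estrus and 10.71 to 10.90 in diestrus oviduct. The part of ciliated cells was not tested.

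**Figure D4:**
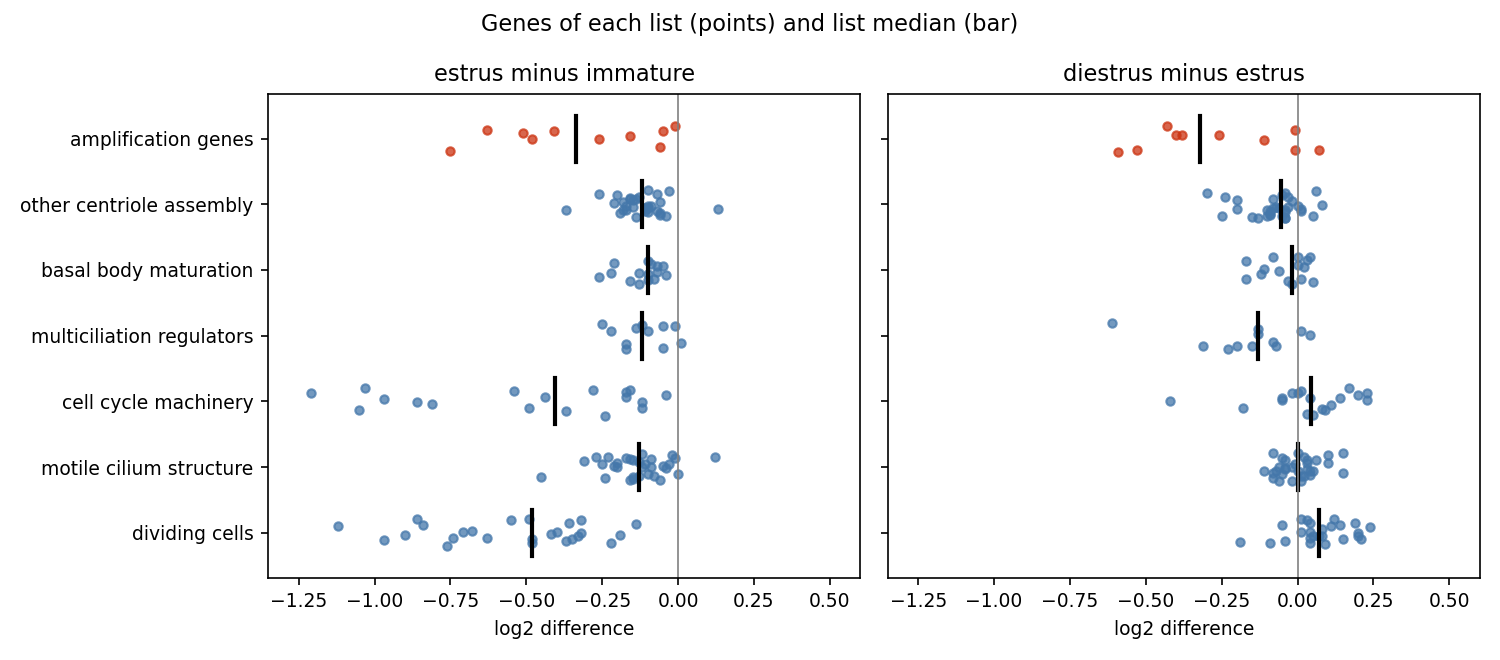
Log2 differences of single genes (points) in 7 lists, with the list median as a bar, for estrus minus immature and diestrus minus estrus. Diestrus minus immature is not drawn: there the amplification genes had a median of -0.68, the cell cycle list -0.36 and the dividing cell list -0.45. The 10 amplification genes have medians of -0.34 and -0.32, while the cell cycle and dividing cell lists have medians of -0.40 and -0.48 in the first panel and 0.05 and 0.07 in the second, and the cilium structure list lies near 0 in the second. No gene of the 7 lists was called in diestrus minus estrus.

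The genes whose profile over the 9 arrays lay closest to that of Deup1 were sought by the root mean square difference between profiles centred on their own mean, among 10915 genes above the median mean. Stil, Cep152 and Cenpj had means below that median and so could not appear. The 3 nearest were other members, Ccno at 0.137, Cdc20b at 0.148 and Plk4 at 0.162 on the log2 scale. The 5 nearest outside the members were Stox1 (0.205), E2f7 (0.233), Cks2 (0.242), Phf10 (0.246) and H2bc18 (0.248). Stox1, a winged helix factor gene, had group means of 9.65, 9.31 and 9.01 in immature, estrus and diestrus oviduct, and E2f7, a repressor of the E2F family, 9.86, 9.47 and 9.25. For Plk4 the nearest was Cks2, a subunit of cyclin-dependent kinases (0.151), followed by Deup1 (0.162), Ckap2l (0.168), Nsdhl and Elovl6 (0.176 each) and Ect2 (0.177). Ckap2l and Ect2 act in mitosis and cell division, and Nsdhl and Elovl6 in the synthesis of sterols and fatty acids.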

How the data were processed

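Whole-oviduct RNA was measured on 9 arrays. The deposited values are log2 intensities, and the submitters' processing notes name RMA and Affymetrix Expression Console, without versions in the sources used here. The file does not name the base of the logarithm, and the range and the array medians (8.85 to 8.90) were checked and lie where log2 values lie. Platform annotation gave 21640 of 28214 probe sets 1 symbol, 1321 several and 5253 none. The probe set with the highest mean stood for a gene with several. The genome build behind the probe sets is not given.

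A group-means model over all 9 arrays was fitted by lmFit and eBayes (limma 3.58.1 in R 4.3.3). Tests were two-sided, and 6 residual degrees of freedom were joined by a prior of 3.6. Counting and drawing were done in Python 3.11.15 with pandas 2.3.3 and matplotlib 3.10.9. The scripts were tested on simulated data. The members and lists were chosen with earlier results of these data known. All 10 members are named whatever their result, from the other lists called genes by size and a few abundant ones, and for Deup1 and Plk4 the 5 nearest profiles, leaving out predicted genes and small RNAs. Marker genes of other cell types (Foxj1, Tppp3, Mki67, Top2a, Inha, Myh11 and Pax8) are named whatever their result. Other normalizations, filters, priors, array weights and sets of arrays were tried. The labels say pooled tissue but do not say whether pools were made on separate days. Same-numbered arrays of different groups had correlations of residuals between -0.294 and 0.169, so the numbers were not taken as pairs. The number of arrays limits the precision.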

Additional observations from a re-analysis of the deposited data

How the results depend on the processing

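Alternatives changed 1 choice at a time. For diestrus minus immature, 5 or 6 of the 10 genes were called under another quantile normalization, median centring, cyclic loess or 1-symbol probe sets. A filter on dim probe sets left 7 of the 10 genes to test, without Stil, and called 5. With gene means, array weights, a prior with trend and robust settings or only these arrays, 5 or 6 of the 10 were called again. The replicate block gave 6 of 10. The count was 3 at an adjusted p under 0.01 and 3 to 6 without a single array. Leaving out immature 2, diestrus 2 and diestrus 3 together, an alternative chosen after seeing the data, left 0 called in diestrus minus immature, 0 in estrus minus immature and 0 in the mature mean, on 6 arrays, with differences of the 6 genes between -1.29 (Stil) and -0.51 (Sass6) in diestrus. For estrus minus immature, the 1 call became 0 with the replicate block, cyclic loess, the filter on dim probe sets (which removes Stil), an adjusted p under 0.01 or only these arrays, became 6 with array weights, and ranged from 0 to 1 without a single array. For diestrus minus estrus, array weights gave 5, and leaving out single arrays 0 to 1 (Plk4, without diestrus 3). For the mature mean, the 5 became 2 with the replicate block, 1 at an adjusted p under 0.01 and 2 to 5 without a single array. The replicate block changed neither of the other counts of members. The labels' numbers are shared without a stated pairing. In the wider lists, 8 calls in diestrus minus immature became 4 with cyclic loess, which ended those of Tubg1, Ppp1r35, Ccnb2 and Cenpk. For the mature mean their calls went the other way, from 6 to 8. Cyclic loess added Aurka, Bub1 and Cdc20 there and ended the call of Mcidas.

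Directions turned only in genes that passed no test. Without immature 3, Ccdc78 turned to 0.02 (estrus minus immature), 0.09 (diestrus minus immature) and 0.06 (mature mean), and Cep63 to 0.02, 0.01 and 0.01. Array weights turned Ccdc78 to 0.04 in diestrus minus immature and Cep63 to 0.17 in diestrus minus estrus. Over the fits without a single array, Ccdc78 ranged from -0.28 to 0.02 in estrus minus immature, -0.20 to 0.09 in diestrus minus immature, -0.24 to 0.06 in the mature mean and -0.01 to 0.14 in diestrus minus estrus. Cep63 ranged from -0.13 to 0.02, -0.14 to 0.01, -0.13 to 0.01 and -0.09 to 0.06, Cep152 from -0.07 to 0.06 in estrus minus immature and Cenpj from -0.02 to 0.01 in diestrus minus estrus. In diestrus minus estrus Ccdc78 turned to -0.01 without diestrus 2, Cenpj to 0.01 without diestrus 3 and with the 3 arrays left out together, and Cep63 to 0.06 without estrus 2, 0.03 without diestrus 1 and 0.01 without diestrus 3. In estrus minus immature Cep152 turned to 0.02 without immature 2, 0.06 without estrus 2 and 0.02 with the 3 arrays left out, and Cep63 to 0.02 without estrus 3. The cause of these turns was not tested. Cenpj, Cep152, the estrus and diestrus values of Stil and of Hyls1, and Plk4 on diestrus 1 and diestrus 2 lay below the array median. There the signal over background limits what a difference can show.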
